A study of Mus musculus with 2 samples.

Results

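The 10 genes described here make, use or divert nicotinamide adenine dinucleotide (NAD): Nampt, Nmnat1, Nmnat3, Nmrk1, Naprt, Nadk, Nnmt, Cd38, Bst1 and Parp1. They were chosen by symbol as enzymes of NAD synthesis and consumption, and they are 10 of the 32285 genes counted by droplet-based single-cell RNA-Seq in 2 libraries of mouse hindlimb muscle. Both libraries came from 24-month-old female C57Bl/6J mice, for which the labels name no altered allele. In the ATRA+agonist library, muscle had been injected 3 times with all-trans retinoic acid (ATRA, the active form of vitamin A), CD3254 (an agonist of the retinoid receptor RXR-alpha) and BMS961 (an agonist of RAR-gamma). In the DMSO vehicle library, muscle had received DMSO, the solvent, by the same injections. Live cells of the dissected quadriceps and gastrocnemius were sorted with propidium iodide, and 2 mice were pooled per library. Each group is therefore 1 library, no test is possible, and every difference below is one between 2 libraries. Intervals are 95% intervals of counting error and leave out differences between mice and the uneven spread of UMIs over cells.

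NAD carries electrons in energy metabolism and is also cut up by signaling enzymes, which release nicotinamide. Most tissues rebuild NAD from that nicotinamide: Nampt makes nicotinamide mononucleotide, and the Nmnat enzymes join it to the adenine nucleotide. Nmrk1 feeds the same path from nicotinamide riboside, Naprt starts the Preiss-Handler path from nicotinic acid, and Nadk phosphorylates NAD to NADP. Nnmt methylates nicotinamide and so takes it out of the salvage path. Cd38 and Bst1 are membrane ADP-ribosyl cyclases that consume NAD, and Parp1 is a nuclear enzyme that builds ADP-ribose chains from NAD at DNA breaks. In muscle, NAD supply is known for its part in mitochondrial function and in the state of muscle stem cells (MuSCs).

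Retinoid receptors bind pairs of a half-site of the letters AGGTCA, so the 250 bases before the RefSeq transcription start of the members were searched for it on both strands, together with the GC box GGGCGG. Sequences came from RefSeq (GRCm38.p6), which gave a window for 7 of the 10 members and none for Naprt, Nnmt and Bst1. These 2 windows are printed 5′ to 3′ with both motifs in capitals, Nampt because it was the only member with a half-site and Parp1 as a member with GC boxes alone.
Nampt, chr12:32820085-32820334, plus strand: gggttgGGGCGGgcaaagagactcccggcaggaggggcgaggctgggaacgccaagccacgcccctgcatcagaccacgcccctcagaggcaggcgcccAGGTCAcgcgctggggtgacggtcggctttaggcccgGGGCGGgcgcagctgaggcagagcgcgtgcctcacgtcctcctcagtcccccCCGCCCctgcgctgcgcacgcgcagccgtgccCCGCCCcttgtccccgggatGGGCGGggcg
Parp1, chr1:180568641-180568890, plus strand: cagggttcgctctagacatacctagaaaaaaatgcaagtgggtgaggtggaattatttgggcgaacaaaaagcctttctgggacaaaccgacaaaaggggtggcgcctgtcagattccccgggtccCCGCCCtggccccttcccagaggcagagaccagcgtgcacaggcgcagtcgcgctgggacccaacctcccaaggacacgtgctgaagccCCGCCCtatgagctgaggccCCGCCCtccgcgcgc
The RefSeq start of Nampt lies inside the GENCODE M21 gene model whose position is given with its levels, so that the Nampt window ends 789 bases after the GENCODE start, and the Parp1 window ends before it. The Nampt window held 1 half-site and 5 GC boxes, and 75.6% of its bases were G or C, with 27 CpG pairs. The Parp1 window held 3 GC boxes and no half-site, with 61.6% G or C and 16 CpG pairs. A half-site occurred in 14.0% of all 32851 windows of this length and a GC box in 32.7%, so a match is common and is a description of letters only.

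The deposited counts of unique molecular identifiers (UMIs) summed to 65197625 over 10444 barcodes with ATRA+agonist and to 109343486 over 17394 barcodes with DMSO vehicle. After filtering, 6907 and 6953 cells remained, with medians of 4686 and 4843 UMIs. The libraries shared 43 barcodes, 9 of them among kept cells. Clustering without the NAD genes gave 26 clusters, and 22 of them were named in 12 classes from marker genes, each with the ending "-like". In 11 classes both libraries had at least 20 cells, and in 8 at least 100. Myonuclei-like cells were found in the ATRA+agonist library alone, 230 cells against 0. B cell-like cells numbered 641 with ATRA+agonist and 65 with DMSO vehicle, and neutrophil-like cells 22 and 153. Levels are given as CPM, the UMIs of a gene per 1000000 UMIs summed over a class. Some names are uncertain. Assigned singly by their own markers, 11 of the 175 neutrophil-like and 68 of the 216 perineurial-like cells fell in the class of their cluster. The neutrophil-like cluster was led by S100a8, S100a9 and Chil3. Its 9 monocyte or macrophage markers summed to 15966 and 13490.0 CPM beside 27451 and 7164 CPM for the 8 neutrophil markers. In the DMSO vehicle library the sums thus go against the name. In perineurial-like cells the 9 FAP (fibro-adipogenic progenitor) markers summed to 28195 and 21873 CPM, beside 1194 and 5616 CPM for the 8 perineurial markers. In tenocyte-like cells they summed to 21715 and 17209 CPM, beside 18774 and 17232 CPM for the 8 tenocyte markers. These sums go against the perineurial-like name in both libraries and the tenocyte-like name with ATRA+agonist.

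Barcodes with at least 50% of UMIs from hemoglobin genes, 2314 with ATRA+agonist and 8125 with DMSO vehicle, gave a background level of RNA outside its own cells. Their UMIs that were not hemoglobin held Nampt at 46.3 CPM (31.7 to 65.3) with ATRA+agonist and 66.97 CPM (57.9 to 77.03) with DMSO vehicle. Cd38 stood at 31.8 CPM (19.9 to 48.2) with ATRA+agonist and 21.2 CPM (16.2 to 27.2) with DMSO vehicle and Nadk at 30.4 CPM (18.8 to 46.4) with ATRA+agonist and 22.6 CPM (17.4 to 28.7) with DMSO vehicle. In these barcodes the other 7 members lay between 1.03 and 18.1 CPM. A level at or under these values may include RNA of other cells, but how much such RNA adds to a cell was not measured. Cd38 in MuSC-like cells stood far lower, at 0.598 CPM with ATRA+agonist and 0.505 CPM with DMSO vehicle. The values are thus no floor, and a level under them is not shown to come from other cells.

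**Figure D1:**
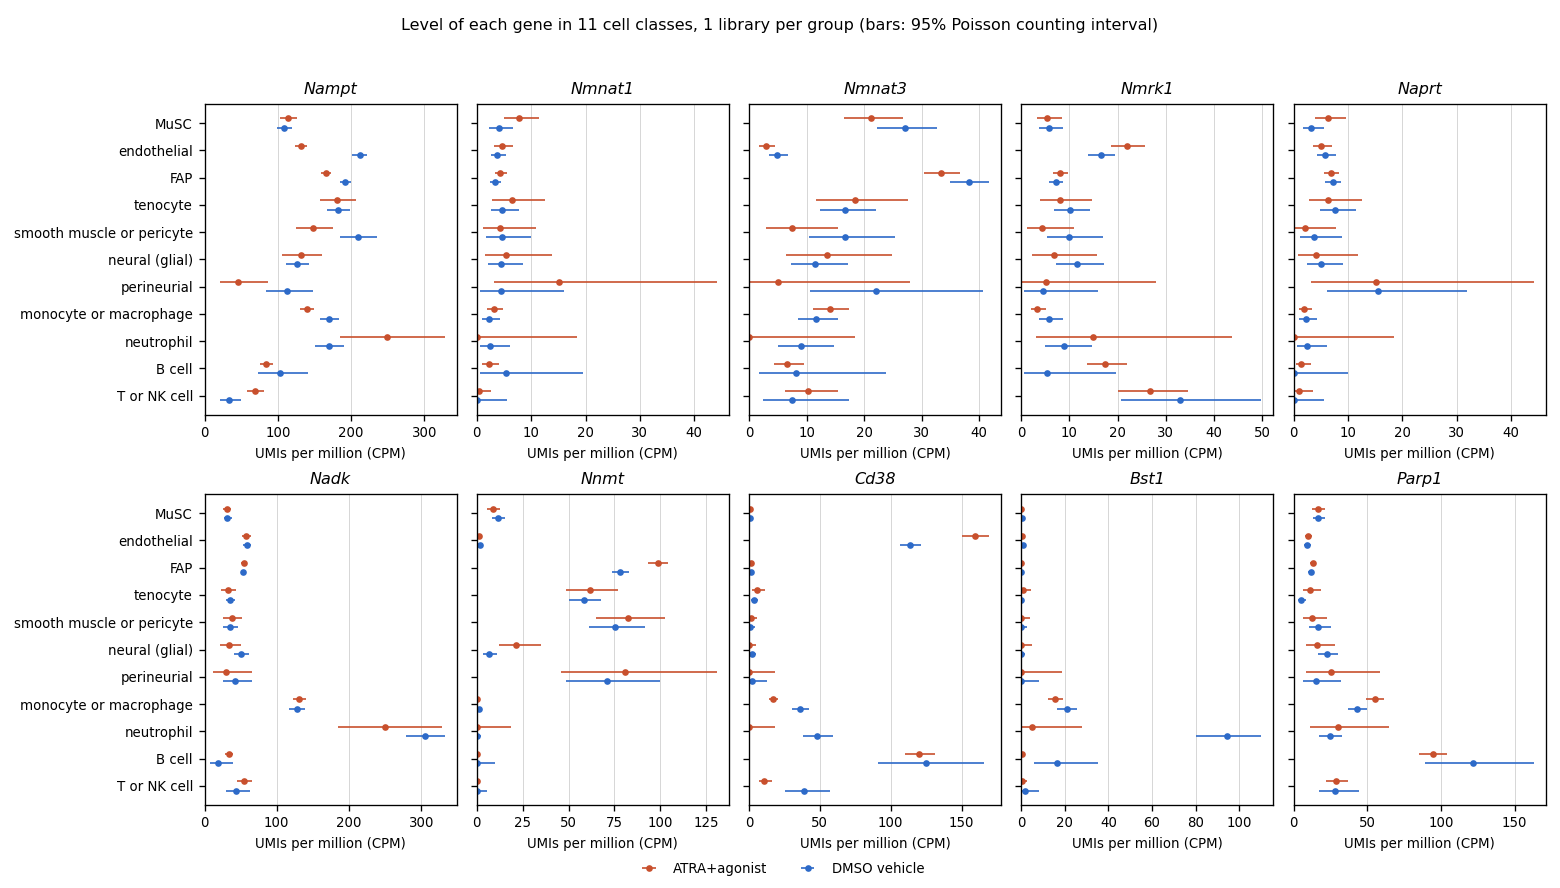
CPM of the 10 genes (x axis, from 0, with its own scale in each panel) in the 11 classes with at least 20 cells in each library (y axis); points are single libraries and bars are 95% Poisson counting intervals. Nampt, Nmrk1, Nadk and Parp1 had UMIs in every class of both libraries. Nnmt was concentrated in FAP-like and other mesenchymal classes, Cd38 in endothelial-like and B cell-like cells, and Bst1 in neutrophil-like and monocyte or macrophage-like cells.

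Nampt (ENSMUSG00000020572, chr12:32819545-32853349, plus strand), the rate-limiting enzyme of NAD salvage, had UMIs in all 11 classes of both libraries, though the level in perineurial-like cells with ATRA+agonist and in T or NK cell-like cells with DMSO vehicle was under that of the red blood cell barcodes. Its level ran from 45.3 CPM in perineurial-like to 249 CPM in neutrophil-like cells with ATRA+agonist, and from 32.9 CPM in T or NK cell-like to 212 CPM in endothelial-like cells with DMSO vehicle. The order of the classes thus differed between the libraries. FAP-like cells, the fibro-adipogenic progenitors between the fibers, held the largest share of its UMIs, 38.3% and 35.8%, beside 31.8% and 32.5% of all UMIs. MuSC-like cells had 114 CPM (103 to 126) with ATRA+agonist and 108 CPM (98.4 to 119) with DMSO vehicle. Within the MuSC-like class, the large cluster led by Hs6st3, Asb5 and Pax7 had 108 and 107 CPM, and the small one led by Hs6st3, Asb5 and Tenm4 (66 and 38 cells) had 202 and 171 CPM with overlapping intervals between the libraries. The unnamed cluster led by Car3, Cfd and Cdh9 had 374 CPM (297 to 465) with ATRA+agonist and 335 CPM (271 to 409) with DMSO vehicle, above every named class of its library. With ATRA+agonist its interval overlapped that of neutrophil-like cells, 185 to 329 CPM. Single clusters could be higher: the endothelial-like one led by Nebl, Cytl1 and Sema3g had 359.9 CPM with DMSO vehicle.

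Of the enzymes that complete the salvage path, Nmnat3 (ENSMUSG00000032456, chr9:98287435-98420438, plus strand) was the one with the clearer pattern. Nmnat3, which acts in mitochondria, was highest in FAP-like cells of both libraries, at 33.4 CPM (30.3 to 36.6) with ATRA+agonist and 38.3 CPM (34.99 to 41.7) with DMSO vehicle. MuSC-like cells came next in both libraries, at 21.2 CPM (16.6 to 26.8) with ATRA+agonist and 27.04 CPM (22.2 to 32.7) with DMSO vehicle, and only with DMSO vehicle did the perineurial-like interval, 10.6 to 40.7 CPM, reach the FAP-like one. Endothelial-like cells had 2.92 and 4.90 CPM, under the red blood cell barcodes of both libraries. Among FAP-like clusters, the one led by Cxcl14, Smoc2 and Mme had the most Nmnat3, 42.2 and 51.98 CPM, against 21.5 and 31.2 CPM in the cluster led by Gdf10, Fst and Penk and 26.5 and 19.6 CPM in the one led by Sema3c, Pi16 and Adgrd1. In the Car3 cluster it stood at 78.6 and 76.7 CPM, on 17 and 22 UMIs.

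Nmnat1 (ENSMUSG00000028992, chr4:149467572-149485202, minus strand), the nuclear enzyme of the same step, was sparse. It had 182 and 141 UMIs over all kept cells, and its class levels ran from 0 to 15.1 CPM, so that 9 of the other 10 classes with ATRA+agonist and all 10 with DMSO vehicle could not be told from the highest one. MuSC-like cells had 7.78 CPM (5.08 to 11.4) with ATRA+agonist and 4.04 CPM (2.31 to 6.57) with DMSO vehicle. The myonuclei-like cells, led by fiber genes such as Acta1 and Ckm, had 26.2 CPM (12.6 to 48.2) on 10 UMIs. The gene overlaps Tmem274 on the other strand.

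Nmrk1 (ENSMUSG00000037847, chr19:18631950-18652428, plus strand), the nicotinamide riboside kinase, was highest in T or NK cell-like cells of both libraries, at 26.6 CPM (20.1 to 34.6) with ATRA+agonist and 32.9 CPM (20.6 to 49.8) with DMSO vehicle. Endothelial-like cells followed, at 21.9 CPM (18.6 to 25.7) with ATRA+agonist and 16.5 CPM (13.8 to 19.5) with DMSO vehicle. Only with DMSO vehicle did no other class fall inside the interval of the highest one. The other classes with at least 20 cells in each library ranged over 3.25 to 17.4 CPM, the myonuclei-like cells had 2.62 CPM on 1 UMI, and MuSC-like cells had 5.39 and 5.81 CPM.

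Naprt (ENSMUSG00000022574, chr15:75890956-75894481, minus strand), the entry enzyme of the Preiss-Handler path, was low everywhere. Its highest level was in perineurial-like cells, whose FAP markers summed higher than their own. They had 15.1 CPM (3.12 to 44.2) with ATRA+agonist and 15.5 CPM (6.24 to 31.95) with DMSO vehicle, on 3 and 7 UMIs. All other classes were at or under 7.68 CPM, near the red blood cell barcodes at 5.79 CPM (1.58 to 14.8) with ATRA+agonist and 4.44 CPM (2.37 to 7.60) with DMSO vehicle. The gene overlaps Eef1d on the same strand, so its UMIs are uncertain.

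Nadk (ENSMUSG00000029063, chr4:155562378-155591001, plus strand), which makes NADP, the precursor of the NADPH that phagocytes use in the oxidative burst, was highest in the neutrophil-like cluster, whose markers were mixed with those of monocytes or macrophages, at 249 CPM (185 to 329) with ATRA+agonist and 305 CPM (279 to 333) with DMSO vehicle. Monocyte or macrophage-like cells came second in both libraries, at 131 CPM (122 to 141) with ATRA+agonist and 128 CPM (117 to 139) with DMSO vehicle. No other class reached the interval of the highest one. Endothelial-like cells had 58.01 and 58.2 CPM, FAP-like cells 54.2 and 53.9 CPM and MuSC-like cells 30.5 and 31.6 CPM. Similar patterns were sought over the 11 classes of both libraries, among the 3096 genes with at least as many UMIs in all as Nadk. The 3 genes whose log2(CPM + 10) over 22 class values correlated best with that of Nadk were Capza2 (Pearson r = 0.909), Il1b (0.903) and Alox5ap (0.903). The same limit on UMIs held for the members below.

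Nnmt (ENSMUSG00000032271, chr9:48591877-48605153, minus strand), the nicotinamide methyltransferase, marked the mesenchymal classes. FAP-like cells had 98.6 CPM (93.3 to 104) with ATRA+agonist and 78.2 CPM (73.5 to 83.1) with DMSO vehicle, and they held 82.3% and 70.1% of all Nnmt UMIs. Smooth muscle or pericyte-like cells had 82.2 and 75.4 CPM, perineurial-like cells 80.6 and 70.9 CPM and tenocyte-like cells 61.7 and 58.5 CPM. The first 2 of these could not be told from FAP-like cells within the intervals. Perineurial-like and tenocyte-like cells had the high sums of FAP markers given above, and the part of FAP-like cells in their Nnmt was not tested. MuSC-like cells had 8.68 and 11.6 CPM, and these are near the red blood cell barcodes at 5.79 CPM (1.58 to 14.8) with ATRA+agonist and 10.9 CPM (7.48 to 15.4) with DMSO vehicle. In T or NK cell-like and neutrophil-like cells Nnmt had 0 UMIs in both libraries. The genes most like it across classes were the collagen genes Col6a2 (Pearson r = 0.970) and Col6a3 (0.968) and the matrix crosslinking gene Loxl2 (0.970).

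Cd38 and Bst1 are neighbors, 24566 bases apart on chromosome 5, and were highest in different classes. Cd38 (ENSMUSG00000029084, chr5:43868553-43912375, plus strand) was high in endothelial-like cells, at 159.7 CPM (150.4 to 169) with ATRA+agonist and 114 CPM (107 to 122) with DMSO vehicle, and in B cell-like cells, at 120.2 CPM (109.8 to 131) with ATRA+agonist and 125 CPM (91.2 to 166) with DMSO vehicle. The 2 B cell-like clusters differed in opposite directions. The one led by Ighd, Bank1 and Satb1 (495 and 29 cells) had 95.5 and 180 CPM, a log2 ratio of -0.92 (-1.52 to -0.25). The one led by Igkc and Jchain (146 and 36 cells) had 160 and 93.3 CPM, a log2 ratio of 0.78 (0.15 to 1.48). Cd38 UMIs were found in 37.8% and 30.6% of endothelial-like cells but in 0.482% and 0.377% of MuSC-like cells, which had medians of 3295.5 and 3473 against 7464 and 6460.5 UMIs per cell. With every cell thinned to 1000 UMIs, which left out 719 and 324 shallower cells over all classes, the endothelial-like shares were 14.8% and 9.96%. MuSC-like, FAP-like and smooth muscle or pericyte-like cells ranged over 0.505 to 1.67 CPM, under the level of the red blood cell barcodes. Among endothelial-like clusters, the arterial one led by Nebl, Cytl1 and Sema3g was lowest in Cd38 of those with at least 20 cells in each library, at 37.6 and 45.5 CPM. The genes with the most similar pattern were the nucleoside transporter Slc28a2 (r = 0.923), Serinc3 (0.904) and Tbc1d22a (0.859). Cd38 overlaps Gm16014 on the same strand and Gm16015 on the other.

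Bst1 (ENSMUSG00000029082, chr5:43818885-43843986, plus strand) was highest in monocyte or macrophage-like cells with ATRA+agonist and in the neutrophil-like cluster with DMSO vehicle. Monocyte or macrophage-like cells had 15.4 CPM (12.4 to 18.9) with ATRA+agonist and 20.8 CPM (16.6 to 25.8) with DMSO vehicle. Neutrophil-like cells had 4.98 CPM (0.126 to 27.8) with ATRA+agonist and 94.3 CPM (80.2 to 110.2) with DMSO vehicle, on 1 UMI in 22 cells and 158 UMIs in 153 cells. These 2 samples also differed in the summed neutrophil markers given above, and the cluster had genes of immature cells and monocytes (Elane, Ngp, Ly6c2) among its leading genes. B cell-like cells had 0.483 CPM (0.0584 to 1.74) with ATRA+agonist and 16.3 CPM (5.96 to 35.4) with DMSO vehicle, on 2 and 6 UMIs, and the interval with DMSO vehicle overlapped that of monocyte or macrophage-like cells. In FAP-like cells Bst1 had 0 UMIs, which allows up to 0.227 and 0.227 CPM. MuSC-like cells had 0 and 1 UMI. Its nearest patterns were those of Fcgr4 (r = 0.903), Apoc2 (0.900) and Cd300ld (0.859), of which Fcgr4 is an antibody receptor of myeloid cells.

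Parp1 (ENSMUSG00000026496, chr1:180568924-180601254, plus strand) was highest in B cell-like cells, at 94.6 CPM (85.5 to 104) with ATRA+agonist and 122 CPM (88.9 to 163) with DMSO vehicle, and no other class fell inside that interval. Monocyte or macrophage-like cells came second, at 55.3 CPM (49.4 to 61.7) with ATRA+agonist and 43.1 CPM (36.96 to 50.03) with DMSO vehicle. The B cell-like class held a cluster led by Ighd, Bank1 and Satb1, with 105 and 173 CPM, and a cluster led by immunoglobulin genes and Jchain, with 77.4 and 93.3 CPM. MuSC-like cells had 16.5 and 16.7 CPM and endothelial-like cells 9.94 and 9.18 CPM. Ighm, one of the markers that named the B cell-like class, had the pattern most like that of Parp1 (r = 0.940), followed by Cerk (0.900) and Ero1lb (0.885). All these correlations are over 22 values, 11 classes in each of 2 libraries, that share depth and clustering, so they are descriptions and carry no p-value. In all, 6 of the 10 members were highest in the same class in both libraries. The share of all genes for which this holds was not computed, so the count is a description only.

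The levels were then compared between the libraries, in the 8 classes with at least 100 cells in each. Each ratio divides the ATRA+agonist level by the DMSO vehicle level, as log2, for genes with at least 50 UMIs over both libraries in the class. Of 80 pairs of a member and a class, 41 had enough UMIs. In 4 of them the levels differed by at least 1.5-fold, 1 higher and 3 lower with ATRA+agonist, and 3 of the 4 intervals left out 0. In 3 of the 4, Nmnat3 in endothelial-like, Cd38 in monocyte or macrophage-like and Nampt in T or NK cell-like cells, the level of at least 1 library was under the red blood cell barcodes. Over all 41, the interval was above 0 in 5, below 0 in 6 and included 0 in 30. Among all genes of the same classes, 3.12% to 10.5% were higher and 3.96% to 9.86% lower by 1.5-fold, as given by class below. The shares of all genes by interval were not computed. None of these counts is read as a result about the members.

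**Figure D2:**
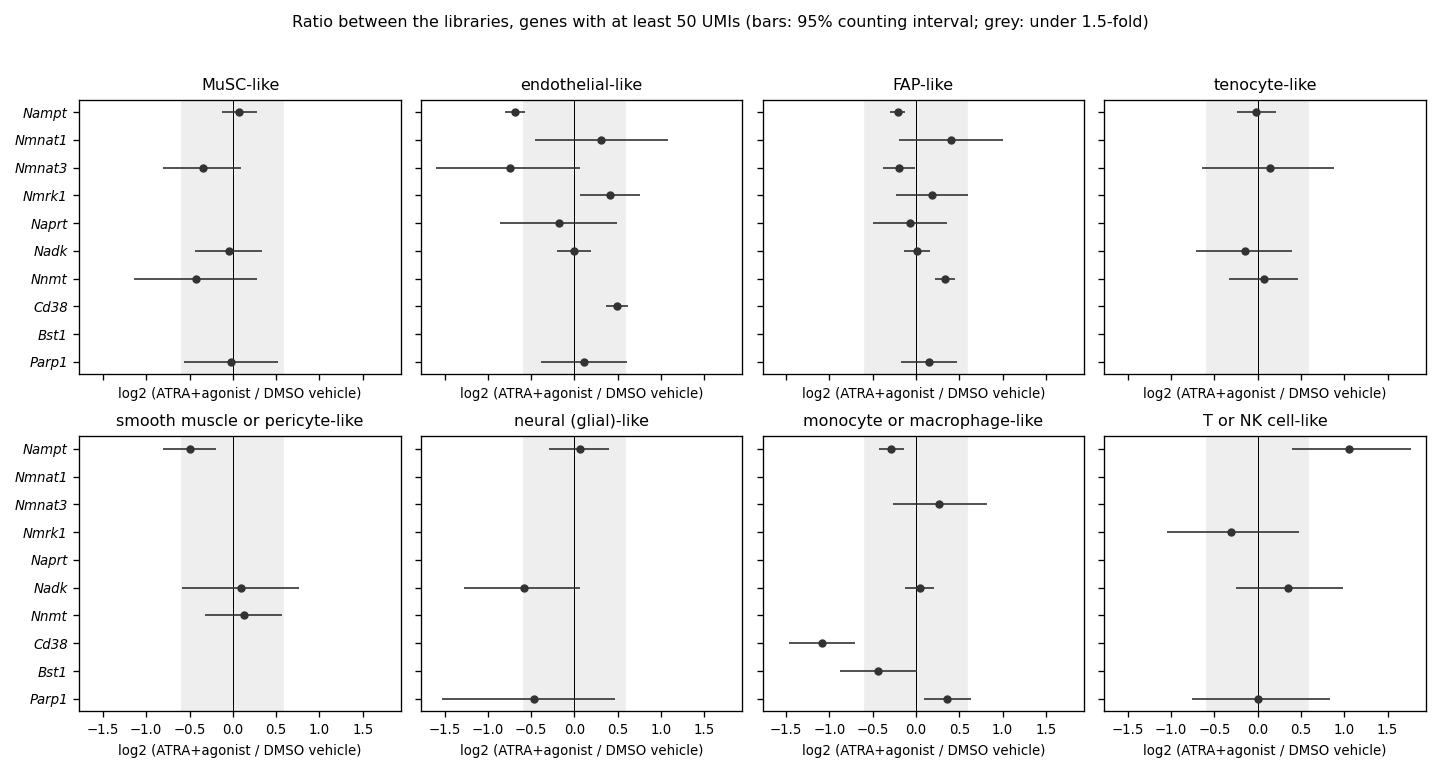
Log2 ratio of ATRA+agonist over DMSO vehicle (x axis) for each member with at least 50 UMIs (y axis), 1 panel per cell class; bars are 95% counting intervals and the grey band marks ratios under 1.5-fold. No member left the band in MuSC-like cells, Nampt and Nmnat3 lay below it in endothelial-like cells, Cd38 lay below it in monocyte or macrophage-like cells and Nampt above it in T or NK cell-like cells.

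In MuSC-like cells none of the 5 members with enough UMIs differed by 1.5-fold, where 6.47% of all 9315 genes tested were higher and 4.56% lower by that much. The ratio was 0.08 (95% interval -0.13 to 0.28) for Nampt, -0.35 (-0.80 to 0.10) for Nmnat3, -0.05 (-0.44 to 0.34) for Nadk, -0.42 (-1.15 to 0.28) for Nnmt and -0.02 (-0.56 to 0.52) for Parp1. All 5 intervals included 0, and the median of the 5 was -0.05 beside 0.04 for all genes. The Nampt interval leaves out a 1.5-fold difference in either direction, and the Nnmt interval does not. With cells thinned to 1000 UMIs the ratios of Nampt, Nmnat3 and Nnmt left their intervals, at -0.23, 0.37 and -2.63, the first 2 with the other sign. MuSC-like cells had medians of 7464 and 6460.5 UMIs, so the thinned ratios rest on far fewer UMIs. Their own counting intervals were not computed, and the part of sampling in these shifts was not tested. The 8 neutrophil markers summed to 1.20 and 123 CPM in this class, and their part in the ratios was not tested. Nmnat1 and Naprt had under 50 UMIs, 26 and 16 UMIs and 21 and 13 UMIs, with ratios of 0.94 (-0.01 to 1.94) and 0.94 (-0.13 to 2.06). Sirt2, an NAD-dependent deacylase that the study examined in MuSCs, had 112 and 86.2 CPM here, a ratio of 0.38 (0.17 to 0.60).

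In endothelial-like cells 2 of 8 members were lower and none higher by 1.5-fold, beside 4.04% lower and 6.61% higher among all 11199 genes tested. Nampt had 132 CPM (123 to 140.4) with ATRA+agonist and 212 CPM (202 to 222) with DMSO vehicle, a ratio of -0.69 (95% interval -0.80 to -0.57). Nmnat3 had 20 and 39 UMIs, a ratio of -0.75 (-1.60 to 0.07) that included 0. Its levels, 2.92 and 4.90 CPM, were under the 7.23 and 18.1 CPM of the red blood cell barcodes. How much of them was RNA of other cells was not tested. Nampt stood above its own level in those barcodes in both libraries. Cd38 was higher with ATRA+agonist, at 0.49 (0.36 to 0.62), and so was Nmrk1, at 0.41 (0.06 to 0.76), both under 1.5-fold. Nadk did not differ by more than counting error, at -0.01 (-0.20 to 0.19).

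The endothelial-like class was made of different clusters in the 2 libraries. The cluster led by Aqp1, Kdr and Timp4 held 1592 of 1928 cells with ATRA+agonist and 705 of 2116 with DMSO vehicle, and the one led by the interferon-response genes Cd274 and Gbp4 held 78 and 997. Nampt differed widely between these clusters. In the Aqp1 cluster it had 110.4 CPM (102 to 119) with ATRA+agonist and 94.1 CPM (82.6 to 107) with DMSO vehicle, a ratio of 0.23 (0.01 to 0.45), which is the opposite direction to the whole class. It was lower with ATRA+agonist inside the interferon-led cluster, at -0.44 (-0.87 to -0.05), inside the cluster led by Dach1, at -0.71 (-1.26 to -0.19), and inside the arterial cluster, at -0.35 (-0.64 to -0.07). The last of these had the highest endothelial level, 282 and 359.9 CPM. Without the interferon-led cluster, a choice made after the data were seen, the class ratio of Nampt was -0.50 (-0.64 to -0.35), under 1.5-fold. Cd38 was 0.51 (0.35 to 0.67) without that cluster, 0.28 (0.11 to 0.46) in the Aqp1 cluster and 1.20 (0.50 to 1.89) in the Dach1 cluster. It was 0.45 (-0.01 to 0.88) in the interferon-led cluster and -0.27 (-1.12 to 0.53) in the arterial one. Nmrk1 was 0.77 (0.30 to 1.26) without the interferon-led cluster and 0.83 (0.28 to 1.41) in the Aqp1 cluster, both past 1.5-fold. It was -0.03 (-1.52 to 1.16) in the interferon-led cluster and -0.73 (-3.18 to 1.14) in the Dach1 cluster, the latter on 3 and 13 UMIs.

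**Figure D3:**
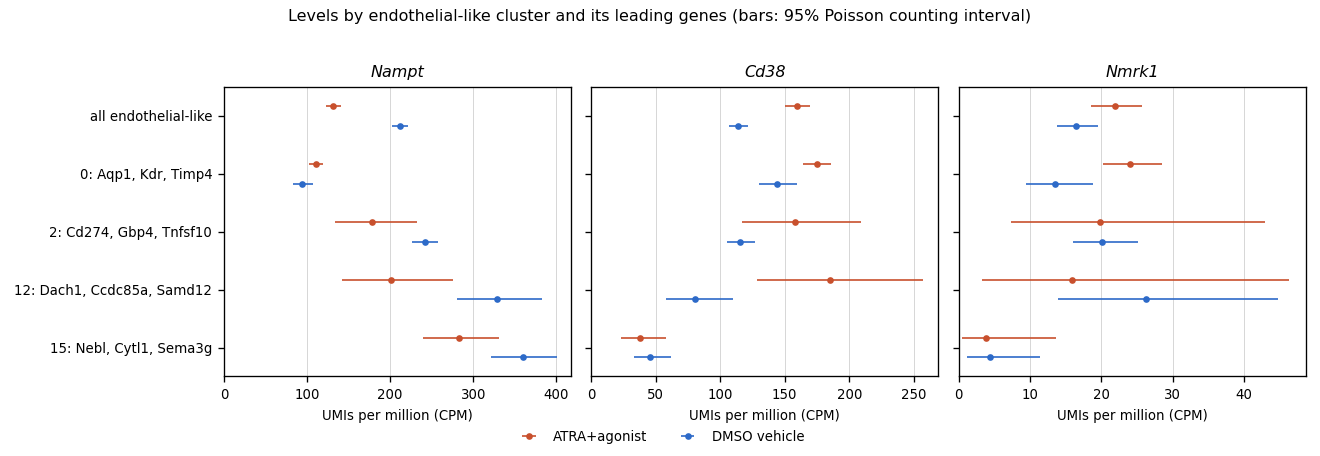
CPM (x axis, from 0) of Nampt, Cd38 and Nmrk1 in all endothelial-like cells and in the endothelial-like clusters with at least 20 cells in each library, named by their 3 leading genes (y axis); points are single libraries and bars are 95% Poisson intervals. Nampt was lower with ATRA+agonist in the whole class but not in its Aqp1 cluster, and the interferon-led and arterial clusters had more of it than the Aqp1 cluster.

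In FAP-like cells none of 8 members differed by 1.5-fold, beside 3.12% higher and 6.51% lower of all 13076 genes tested. Nnmt was higher with ATRA+agonist at 0.34 (95% interval 0.22 to 0.45). The same direction was found in each of the 3 FAP-like clusters, at 0.30 (0.14 to 0.47) in the Cxcl14 cluster, 0.39 (0.14 to 0.63) in the Gdf10 cluster and 0.30 (0.03 to 0.57) in the Sema3c cluster. Nampt was lower, at -0.21 (-0.29 to -0.13), and so was Nmnat3, at -0.20 (-0.38 to -0.01). Within clusters, the Nampt interval was below 0 in the Cxcl14 cluster alone, and Nmnat3 had ratios of -0.30 (-0.54 to -0.07), -0.54 (-0.99 to -0.10) and 0.44 (-0.05 to 0.94) in the same order of clusters.

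In tenocyte-like cells none of 4 members differed by 1.5-fold, where 5.52% of 8498 genes were higher and 9.30% lower, and all 4 intervals included 0. In smooth muscle or pericyte-like cells none of 3 members did, where 6.70% of 6567 genes were higher and 8.51% lower. There Nampt was -0.50 (95% interval -0.80 to -0.20), with -0.34 (-0.67 to -0.00) in the pericyte cluster led by Abcc9 and Kcnj8 and -1.28 (-2.21 to -0.46) in the smooth muscle cluster led by Acta2 and Tagln, the latter on 14 and 90 UMIs. In neural (glial)-like cells none of 3 members differed by 1.5-fold, beside 5.98% higher and 8.77% lower of 7363 genes. Nadk was -0.58 (-1.27 to 0.07) in these cells. The 9 monocyte or macrophage markers summed to 254 and 2087 CPM there, with 3 and 1 of them at 0, and their part in the Nadk ratio was not tested.

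In monocyte or macrophage-like cells 1 of 6 members was lower and none higher by 1.5-fold, beside 3.96% lower and 3.59% higher of all 9329 genes tested. Cd38 had 16.95 CPM (13.8 to 20.6) with ATRA+agonist and 35.9 CPM (30.3 to 42.3) with DMSO vehicle, a ratio of -1.08 (95% interval -1.47 to -0.71). The level with ATRA+agonist was under that of Cd38 in the red blood cell barcodes of the same library, and the level with DMSO vehicle was above it. Within this class the 9 endothelial markers summed to 42.5 and 62.7 CPM, with 1 of them at 0 in each library, and the 8 B cell markers to 173 and 137 CPM, with 2 at 0 in each. The 8 neutrophil markers summed to 81.2 and 75.6 CPM. The part of these cells in the Cd38 ratio was not tested. Nampt was -0.29 (-0.43 to -0.14), Parp1 0.36 (0.09 to 0.63) and Bst1 -0.43 (-0.88 to 0.01). Parp1 was thus higher and Nampt lower with ATRA+agonist beyond counting error, both by under 1.5-fold.

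In T or NK cell-like cells 1 of 4 members was higher and none lower by 1.5-fold, where 10.5% of 6174 genes were higher and 9.86% lower. Nampt had 68.2 CPM (57.4 to 80.5) with ATRA+agonist and 32.9 CPM (20.6 to 49.8) with DMSO vehicle, a ratio of 1.05 (95% interval 0.40 to 1.77), on 141 UMIs in 307 cells and 22 UMIs in 100 cells. The level with DMSO vehicle was under that of Nampt in the red blood cell barcodes. The 8 neutrophil markers summed to 37.8 and 11.97 CPM and the 9 monocyte or macrophage markers to 27.6 and 20.9 CPM in this class. The 9 endothelial markers summed to 209.6 and 160.1 CPM, with 1 and 5 at 0, and the 8 dendritic markers to 132 and 47.9 CPM, with 2 and 5 at 0. Their part in the ratio was not tested. Cd38 had 10.6 and 38.9 CPM, on 22 and 26 UMIs, under the minimum of 50 over both libraries. With DMSO vehicle 88.5% of these Cd38 UMIs were in 10 cells.

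The other NAD genes were read from a list of 46 genes of de novo synthesis, precursor handling, NADP and mitochondrial NAD, ADP-ribosylation, sirtuins and nicotinamide oxidation. In endothelial-like cells 35 of the 46 had enough UMIs, 7 of them lower and 1 higher by 1.5-fold, against the 4.04% and 6.61% of all genes given above. Ido1, the first enzyme of de novo synthesis from tryptophan and an interferon-response gene, had 13.2 and 116 CPM, a ratio of -3.14 (95% interval -3.47 to -2.82), and it was among the 10 leading genes of the interferon-led cluster. It was -2.05 (-2.43 to -1.67) without that cluster and -0.35 (-0.93 to 0.25) in the Aqp1 cluster. Its relative Ido2 had a ratio of -0.90 (-1.29 to -0.52). The nicotinamide mononucleotide transporter gene Slc12a8 was -1.41 (-2.12 to -0.74). Of the ADP-ribosyltransferases, Parp11 was -1.36 (-1.71 to -1.01), Parp3 -0.94 (-1.49 to -0.41), Parp9 -0.77 (-0.91 to -0.63) and Parp14 -0.69 (-0.76 to -0.62). Without the interferon-led cluster, Slc12a8 was -2.22 (-2.96 to -1.53) and Ido2 -0.93 (-1.38 to -0.49). Parp11 was -0.91 (-1.35 to -0.47) and Parp3 -0.90 (-1.54 to -0.26) without it, so these genes remained past 1.5-fold. In the Aqp1 cluster their intervals included 0 but did not leave out a level 1.5-fold lower. There Slc12a8 was -1.01 (-2.31 to 0.32) on 12 and 11 UMIs, and Parp3 was -0.50 (-1.36 to 0.39). Ido2 was -0.27 (-0.86 to 0.34) and Parp11 -0.15 (-0.75 to 0.47) in that cluster. Parp9 and Parp14 were under 1.5-fold without the interferon-led cluster, and in the Aqp1 cluster Parp14 was higher with ATRA+agonist, at 0.39 (0.25 to 0.52). The gene higher by 1.5-fold was Nmnat2, on 87 UMIs, which was -0.11 (-0.77 to 0.56) without the interferon-led cluster. Nmnat2 and the other genes named from here with under 100 UMIs were singled out after their values were seen.

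**Figure D4:**
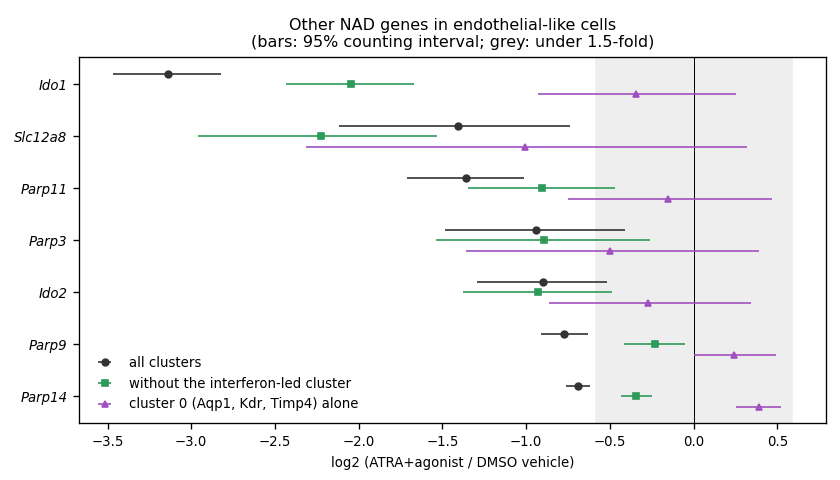
Log2 ratio of ATRA+agonist over DMSO vehicle (x axis) in endothelial-like cells for the 7 other NAD genes with at least 100 UMIs and a ratio past 1.5-fold (y axis), in all clusters, without the interferon-led cluster and in the Aqp1 cluster alone; bars are 95% counting intervals and the grey band marks ratios under 1.5-fold. All 7 were lower in the whole class, and in the Aqp1 cluster the interval of Parp14 lay above 0 and none lay below it.

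In MuSC-like cells 31 of the 46 other NAD genes had enough UMIs, 2 higher and 1 lower by 1.5-fold, with a median of 0.18 beside 0.04 for all genes. The higher ones were Slc29a1, a nucleoside transporter, with 39.2 and 23.5 CPM and a ratio of 0.74 (0.34 to 1.14), and the mitochondrial sirtuin Sirt3, with 10.5 and 4.55 CPM on 53 UMIs and a ratio of 1.20 (0.34 to 2.11). The lower one was Parp16, at -0.73 (-1.48 to -0.00) on 74 UMIs. In FAP-like cells 1 of 35 was higher, Nmnat2, with 10.5 and 4.24 CPM and a ratio of 1.31 (0.85 to 1.78), and 1 was lower, Slc12a8, at -0.68 (-1.10 to -0.26). Nmnat2 is the cytosolic enzyme of the step that Nmnat1 and Nmnat3 also catalyse.

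In smooth muscle or pericyte-like cells 2 of 17 were higher, Art3 at 0.69 (0.57 to 0.82) and Adprh at 0.82 (0.24 to 1.40), and 2 were lower, Pnp at -0.75 (-1.13 to -0.38) and Tiparp at -0.70 (-0.97 to -0.44). Pnp splits nicotinamide riboside and other nucleosides, and Tiparp is an ADP-ribosyltransferase. In monocyte or macrophage-like cells 3 of 29 were higher and none lower, Afmid at 0.70 (0.24 to 1.17) and Haao at 0.95 (0.17 to 1.79), both of de novo synthesis, and Parp10 at 0.74 (0.09 to 1.42) on 99 UMIs. In tenocyte-like cells 2 of 22 were higher, Parp8 at 0.82 (0.50 to 1.14) and Aox1 at 0.61 (-0.25 to 1.44), and 1 was lower, Sirt7 at -0.96 (-2.18 to 0.10). In neural (glial)-like cells none of 19 was higher and Parp8 was lower, at -0.61 (-1.46 to 0.18). In T or NK cell-like cells 2 of 17 were higher, Nt5e at 0.93 (0.29 to 1.62) and Nadk2 at 0.83 (-0.16 to 1.97), and Parp9 was lower, at -0.93 (-1.52 to -0.32). Nt5e makes nucleosides from nucleotides outside the cell. In each of these 7 classes the share of other NAD genes past 1.5-fold stands beside the share of all genes given with the members above.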

How the data were processed

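The deposited values are unnormalized UMI counts for every gene in every barcode that Cell Ranger 7.2.0 called as a cell, from 10x Genomics 3′ libraries and the build mm10 (GRCm38). The annotation release and the counting of introns are not given in the sources used here, so the gene identifiers were looked up in GENCODE M21 for positions. UMIs count molecules once, but levels at the 3′ end cannot be set against each other between genes.

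Cells were kept with 300 to 5000 genes, under 20% mitochondrial UMIs and under 0.25% UMIs of hemoglobin beta genes, after the limits in the study's methods. Doublets were scored per library against artificial doublets (20% of the merged cells, neighbors 1%), and 7.5% of cells were removed. Counts were log-normalized, and 2000 variable genes without mitochondrial, ribosomal, hemoglobin and NAD genes gave 30 principal components, a graph of 20 neighbors and Louvain clusters at resolution 0.8 (python-igraph 0.11.9, scikit-learn 1.9.0, numpy 2.4.6, scipy 1.17.1, pandas 2.3.3). No batch correction was made. A cluster was named from at least 3 markers with 10 or more UMIs and 2-fold enrichment (10 CPM added), and it remained unnamed where markers of another class led or where its depth was under its library's by a factor of 3 with no own marker leading. These naming limits were set after clusters had been seen.

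UMIs were summed per library and class, with exact Poisson 95% intervals, and ratios have exact intervals conditional on the summed count. The ratio intervals were checked on counts simulated from the same Poisson model. That check could not show an error from UMIs gathered in few cells. A gene counted as past 1.5-fold with at least 50 UMIs. A count of 0 was taken to allow 3 counts. With 1 library per group there was no test and there are no p-values. Named genes were all members, other NAD genes with at least 100 UMIs past 1.5-fold, and Sirt2 in MuSC-like cells. The 3 most similar genes were also named for each member whose highest class was at least 4-fold above its median class. They were sought only among genes with at least as many UMIs in all as the member. The members, the gene lists and the markers were chosen with earlier results of these data known. The alternatives concerned doublets, cell filters, clustering, cell assignment, depth, scaling and the UMI minimum.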

Additional observations from a re-analysis of the deposited data

Results flagged for a closer look

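Nampt and Cd38 had intervals on both sides of 0 in different cell classes. Nampt was higher with ATRA+agonist in T or NK cell-like cells, at a log2 ratio of 1.05, and lower in endothelial-like (-0.69), smooth muscle or pericyte-like (-0.50), monocyte or macrophage-like (-0.29) and FAP-like cells (-0.21). Cd38 was higher with ATRA+agonist in endothelial-like cells (0.49) and lower in monocyte or macrophage-like cells (-1.08). With 1 library per group, the differences between these classes were not tested.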

How the results depend on the processing

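The count of 4 member and class values past 1.5-fold was 8 without doublet removal, 7 without the hemoglobin filter and 13 with a minimum of 20 UMIs, and it was 3 to 6 under the other alternatives. The count of 0 in MuSC-like cells was 2 with a minimum of 20 UMIs, where Nmnat1 and Naprt entered, and 0 under all others. Between 4 and 8 members were highest in the same class of both libraries, beside 6. Of 538 single ratios recomputed under 13 alternatives and 2 more added after the data were seen, 518 lay within the interval of the reported value, 19 outside it (11 of them with cells thinned to 1000 UMIs), and 1 was past 1.5-fold in the report and had the other sign: Nmnat3 in endothelial-like cells was 0.15 with thinned cells. The sign differed from the reported one in 53 of the 538, all of ratios whose reported interval included 0. The cause was not tested. Nampt in endothelial-like cells ranged from -0.80 to -0.50 and was under 1.5-fold without the hemoglobin filter (-0.55), without a maximum of genes (-0.54) and without the interferon-led cluster (-0.50). Cd38 in monocyte or macrophage-like cells ranged from -1.33 to -0.88, Nnmt in MuSC-like cells from -2.63 to -0.28 and Bst1 in monocyte or macrophage-like cells from -1.47 to 0.37. Nampt in T or NK cell-like cells ranged from 0.66 to 1.06, but only 11 of the 13 alternatives gave a ratio there. That class had 100 cells with DMSO vehicle, which is the minimum for a comparison. No paired analysis was possible because each group is 1 library with no replicate. Depth limits the sparse genes most: Nmnat1, Naprt and Bst1 had under 300 UMIs per library over all kept cells.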
